A study of Mus musculus with 6 samples.

Results

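Mmel1 and Prxl2b lie next to each other on mouse chromosome 4, and both gave a higher signal in erythroblasts of P38α−/− mice than in those of P38α+/− mice. The locus was taken as chr4:154200000-154350000 of the mm9 build, and every non-control probe whose position in the array files lies wholly inside it was included. This gave 7 of 34743 genes, read by 9 of 55681 probes. The window was chosen by the measured rise of both genes in this very comparison, so their differences between the genotypes are given as descriptions and are no test of the locus. Of the 9 probes, 6 (of 4 genes) were bright enough to be tested, which means that every array of 1 genotype or of both read them well above background, and 3 were not.

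RNA came from CD71highTer119+ bone marrow (BM) erythroblasts, the nucleated precursors of red cells, sorted from 3 P38α+/− and 3 P38α−/− mice on a C57Bl/6 background. All 6 mice carried Mx1-Cre, whose interferon-inducible promoter is active in blood cells and in other tissues, with 1 (P38α+/−, the heterozygous controls) or both (P38α−/−) floxed alleles of P38α, the stress-activated kinase encoded by Mapk14. Both genotypes received 3 injections of 300 µg PolyIC at 6 to 8 weeks of age, rested for 6 weeks, and then received 1 injection of 100 mg/kg phenylhydrazine (PHZ), which lyses red cells. Cells were sorted on day 4 of recovery from the anemia, and 10 ng of RNA per mouse was amplified with a Cy3 label and read on its own Agilent whole-genome mouse array. The comparison asked what RNA differed when erythroblasts recovering from anemia had no functional P38α allele instead of 1. In sorted cells, fewer cells of a type and less RNA per cell cannot be told apart.

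Mmel1 encodes a zinc metallopeptidase of the neprilysin (M13) family, membrane-bound or secreted enzymes that cut small peptides outside the cell. Prxl2b, listed in the array files under its older name Fam213b, encodes a thioredoxin-fold protein of the peroxiredoxin-like group that reduces prostaglandin H2 to prostaglandin F2α and is also known as prostamide/prostaglandin F synthase. Tnfrsf14 is the herpesvirus entry mediator (HVEM), a receptor of the tumor necrosis factor family that binds LIGHT, BTLA and CD160 on lymphoid cells. Hes5 is a transcriptional repressor and a classical target of Notch signaling. Pank4, whose probe lies just beyond the window, belongs to the pantothenate kinase family of coenzyme A synthesis. Ttc34 is named for its tetratricopeptide repeats, Gm13112 is a long non-coding RNA, and BC052527 is a cDNA clone with no gene of its own name in the tables used.

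The order of the probes along the chromosome is Ttc34, Gm13112, Mmel1, Prxl2b, Tnfrsf14, Hes5, BC052527 and Pank4. Ttc34, Mmel1, Hes5, BC052527 and Pank4 were read on the plus strand, and Gm13112, Prxl2b and Tnfrsf14 on the minus strand. For each of these except BC052527, the strand of the probe equalled that of the gene in RefSeq (GRCm38.p6). Mmel1 and Prxl2b therefore run towards each other, tail to tail. The Mmel1 probes are at chr4:154269571-154269630 and chr4:154269578-154269637, and the Prxl2b probe is at chr4:154270546-154270605, so that 908 bases separate the nearer pair of probes. Gm13112 overlaps both Ttc34 and the start of Mmel1 in RefSeq, on the opposite strand from either. A further long non-coding RNA, Gm52690, overlaps Prxl2b in RefSeq and is read by no probe of the window. In GRCm38.p6 the start region of Pank4 (chr4:154963873-154964172) closely follows that of Hes5 (chr4:154960673-154960972), on the same strand. The start of Pank4 thus probably lies inside the window, and whether the BC052527 probe reads part of Pank4 was not settled. The sources used here give no exon boundaries in mm9, so whether a probe lies in coding sequence or a UTR is not stated. The files place the Mmel1 probes at bases 2868 and 2875 of the transcript and the Prxl2b probe at base 718.

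The probes carry the whole measurement, and 30 of the 60 bases of the 2 that matter most are shown. Capitals mark ATTAAA, a variant of the polyadenylation signal AATAAA.
Mmel1 (bases 8 to 37 of the probe at chr4:154269571-154269630, plus strand, identical to bases 1 to 30 of the other Mmel1 probe): tagtgtgtggctaaatgttctcgagcttca
Prxl2b (bases 31 to 60 of its probe, minus strand): tttcaacagcaatgagccATTAAAgtgcag
The stretch shown is where the Mmel1 probes coincide. They share 53 of their 60 bases, so they are near-duplicate readings of one target and count as 1 gene below. ATTAAA occurs in 3.95% of the 55681 probes and AATAAA in 10.1%.

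Mmel1 was detected in both genotypes and was several-fold higher in P38α−/− erythroblasts. The scanner intensities of the probe at chr4:154269571-154269630 were 434, 704 and 1860 in P38α+/− replicates 1, 2 and 3, and 4580, 9600 and 11500 in P38α−/− replicates 1, 2 and 3. All values that follow are log2 intensities minus the array's 75th percentile, computed from the 15152 probes that every array detected well above its background. On this scale the same probe read −0.90, −0.89 and 0.33 for P38α+/− and 2.63, 2.61 and 3.09 for P38α−/−. The genotypes did not overlap, and the gap between the highest P38α+/− and the lowest P38α−/− array was 2.28. The means were −0.48 ± 0.71 and 2.78 ± 0.27 (SD, n = 3 each), a difference of 3.26 (standard error 0.37, 95% interval 2.37 to 4.15), which is 9.59-fold. The second Mmel1 probe read −0.84, −0.82 and 0.40 against 2.57, 2.70 and 3.12, a difference of 3.21 (standard error 0.37). On no array did the 2 probes differ by more than 0.09. Among 14026 tested genes, each taken by its brightest tested probe, Mmel1 had the 4th largest rise.

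Prxl2b was also detected on all 6 arrays, and it too was higher in every P38α−/− array than in every P38α+/− array. Its probe read −2.71, −3.08 and −3.31 in P38α+/− replicates 1, 2 and 3 and −0.74, −1.06 and −0.59 in P38α−/− replicates 1, 2 and 3. The smallest gap between the genotypes was 1.66, against ranges of 0.59 and 0.47 within them. The means of −3.03 ± 0.30 and −0.79 ± 0.24 (SD, n = 3 each) differed by 2.24 (standard error 0.22, 95% interval 1.71 to 2.77), or 4.72-fold. This was the 31st largest rise of the 14026 genes.

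The remaining tested genes of the window gave overlapping genotypes. The Tnfrsf14 probe at chr4:154296319-154296378 read −1.81, −2.42 and −1.83 for P38α+/− and −2.26, −2.23 and −2.12 for P38α−/−, a difference of −0.18 (standard error 0.21, 95% interval −0.69 to 0.32). The other Tnfrsf14 probe, at chr4:154300709-154300768, read −2.16, −2.64 and −2.12 against −2.55, −2.73 and −2.59, a difference of −0.32 (standard error 0.19, 95% interval −0.78 to 0.14). P38α+/− replicate 2 was the lowest control on both. It read below all 3 P38α−/− arrays on the first probe and among them on the second. BC052527, at chr4:154339262-154339321, read −3.54, −3.62 and −3.28 against −3.17, −3.69 and −3.49, a difference of 0.03 (standard error 0.20, 95% interval −0.44 to 0.50). The intervals leave room for differences of either sign, with upper ends of 0.32, 0.14 and 0.50.

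**Figure D1:**
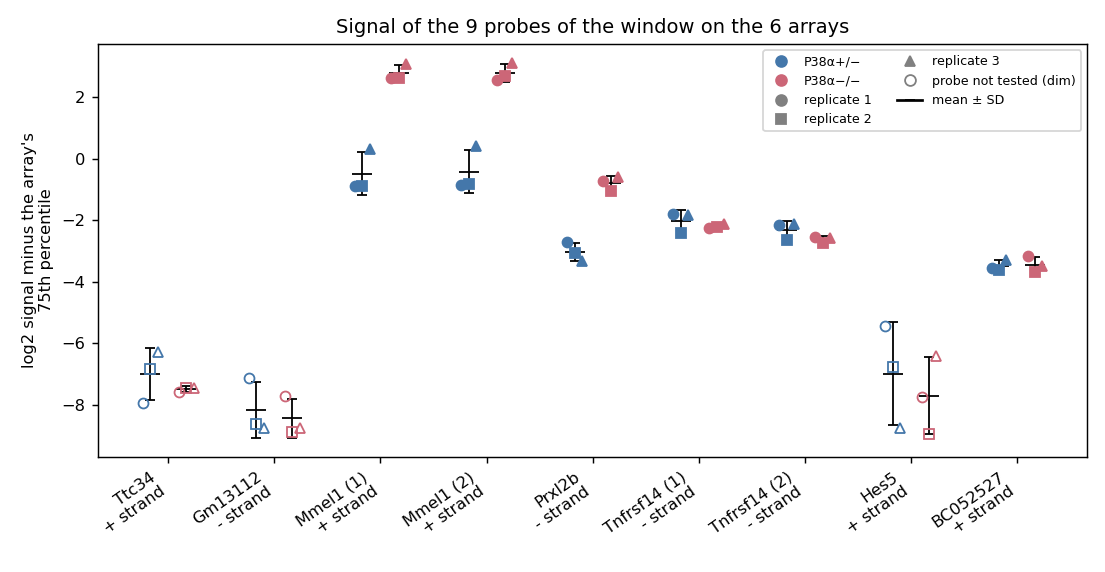
Log2 signal minus the array's 75th percentile (vertical axis) for the 9 probes of the window in chromosomal order (horizontal axis), with 1 point per array, bars for the mean ± SD of 3 arrays, filled points for tested probes and open points for probes too dim to test. The P38α−/− points lie above all P38α+/− points for both Mmel1 probes and for Prxl2b, and the genotypes overlap for the other 6.

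Ttc34, Gm13112 and Hes5 were too dim to compare. The Ttc34 probe (chr4:154241174-154241233) cleared the background on 1 of the 3 P38α+/− arrays and on 0 of the 3 P38α−/− arrays. Gm13112 (chr4:154242599-154242658), the transcript that faces Mmel1 on the minus strand, was detected above background on 0 of 6 arrays. The Hes5 probe (chr4:154336347-154336406) was above background on 1 array of each genotype. For these 3 genes a difference was not detectable at this signal, and no fold is given.

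The rise was thus read on both strands, and so was its absence. On the plus strand Mmel1 differed by 3.21 and BC052527 by 0.03, and on the minus strand Prxl2b differed by 2.24 and Tnfrsf14 by −0.18, each by its brightest probe. Going outward from the Mmel1 and Prxl2b pair, the nearest tested probe, that of Tnfrsf14, lay 25713 bases beyond Prxl2b. On the other side the nearest probe, that of Gm13112, lay 26912 bases before Mmel1 and was undetected. The last probe inside the window was that of BC052527. The first one outside, that of Pank4 on the plus strand (chr4:154354923-154354982), began 4923 bases past the edge and read 1.18, 1.14 and 1.31 against 1.33, 1.18 and 1.56, a difference of 0.15 (standard error 0.16, 95% interval −0.25 to 0.54). At the lower edge, Ttc34 was the first probe inside. The nearest probe outside it, that of Actrt2, a testis actin-related gene (chr4:154040658-154040717), was above background on 0 arrays.

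**Figure D2:**
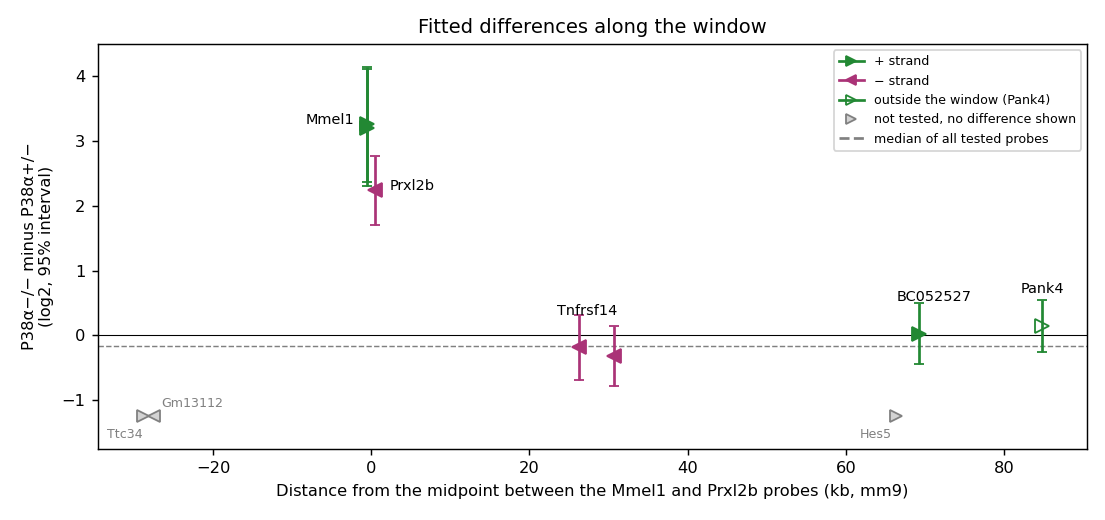
Fitted difference between P38α−/− and P38α+/− erythroblasts (log2, vertical axis, bars for the 95% interval) against the distance in kb from the midpoint between the Mmel1 and Prxl2b probes (horizontal axis), with arrowheads for the strand and grey symbols for probes too dim to test. Mmel1 at 3.26 and 3.21 and Prxl2b at 2.24 stand next to each other on opposite strands, while Tnfrsf14, BC052527 and Pank4 lie between −0.32 and 0.15.

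Genes farther out gave smaller differences. Within 1 Mb on each side, 33 genes were tested, and their median difference was 0.03, against −0.14 for all 14026 tested genes. In the lower flank 8 genes had a median of 0.26, and in the upper flank 25 genes had a median of −0.04. The 8 lower probes lay from chr4:153335947 to chr4:153531656, and no gene between them and Mmel1 was tested. On that side the extent of the rise was therefore not measured. By limma 0 of the 33 were called, a call being an adjusted p up to 0.05 and a fold of 2 or more, and 0.2% of all tested genes were called by any probe. The largest rise was that of Cptp, a ceramide-1-phosphate transfer protein (chr4:155239406-155239465), which read −1.70, −1.69 and −1.48 against −1.02, −0.79 and −0.81. Its genotypes did not overlap, and its difference of 0.75 (standard error 0.16) had an adjusted p of 0.102 from limma. The lowest value, −1.47 (standard error 1.00), came from a minus-strand transcript at chr4:155108500-155108559 that read −2.53 in P38α+/− replicate 1 and between −7.23 and −5.79 in the other 5 arrays.

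**Figure D3:**
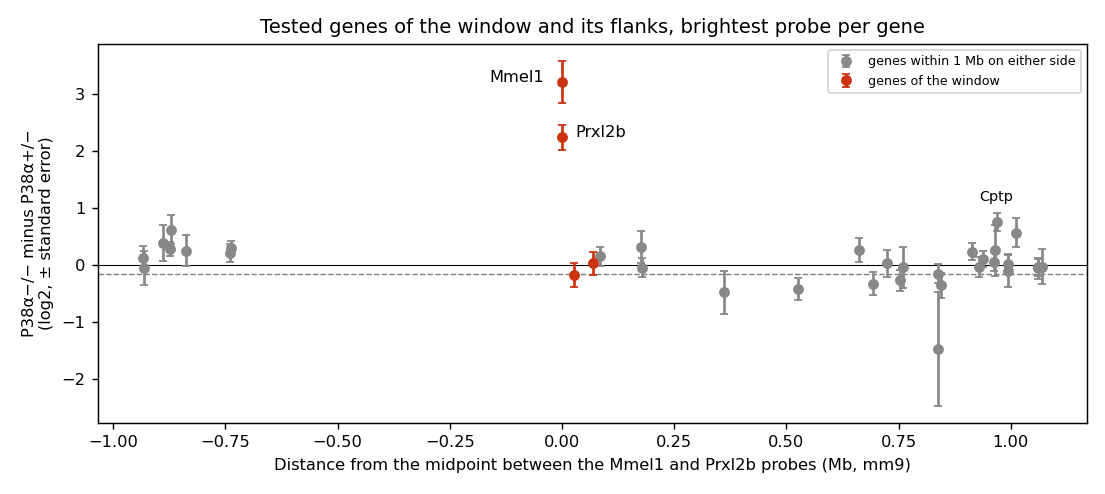
Fitted difference between P38α−/− and P38α+/− erythroblasts (log2, vertical axis, bars for the standard error) against distance in Mb from the midpoint between the Mmel1 and Prxl2b probes (horizontal axis), with the 4 tested genes of the window in red and the 33 tested genes within 1 Mb on either side in grey, each by its brightest tested probe. The 33 flanking genes lie between −1.47 and 0.75, below Mmel1 at 3.21 and Prxl2b at 2.24, and the dashed line marks the median of all tested probes, −0.16.

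The 4 tested genes of the window had a median difference of 1.13, which lies between 2 genes that were high and 2 that were near 0. Without Mmel1 and Prxl2b the median of the other 2 was −0.08. Since the median tested probe differed by −0.16, the differences relative to it were 3.42 for Mmel1, 2.40 for Prxl2b, 0.19 for BC052527 and −0.02 and −0.16 for the Tnfrsf14 probes. By limma over all 18550 tested probes, 1 window probe was called, that of Prxl2b (adjusted p = 0.0345). The Mmel1 probes fell just outside (adjusted p = 0.0501 and 0.0563 from limma). Of all tested probes, 0.156% were called, and 0.119% were called as higher in P38α−/− arrays, so 75.9% of the 29 calls were higher. That share depended on the processing. With the replicate number as a block it was 29.0% of 69 calls. In the window, the calls changed places under that block: Mmel1 passed (adjusted p = 0.0463 from limma for the probe at chr4:154269571-154269630) and Prxl2b did not (adjusted p = 0.0576 from limma). Both genes thus sat at the edge of the threshold. The genotypes did not overlap, with P38α−/− higher, at 3 of the 6 tested window probes and at 6.81% of all tested probes. That condition together with a difference of at least 2 was met by the same 3 window probes and by 0.221% of all tested probes. These counts restate how the window was chosen.

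**Figure D4:**
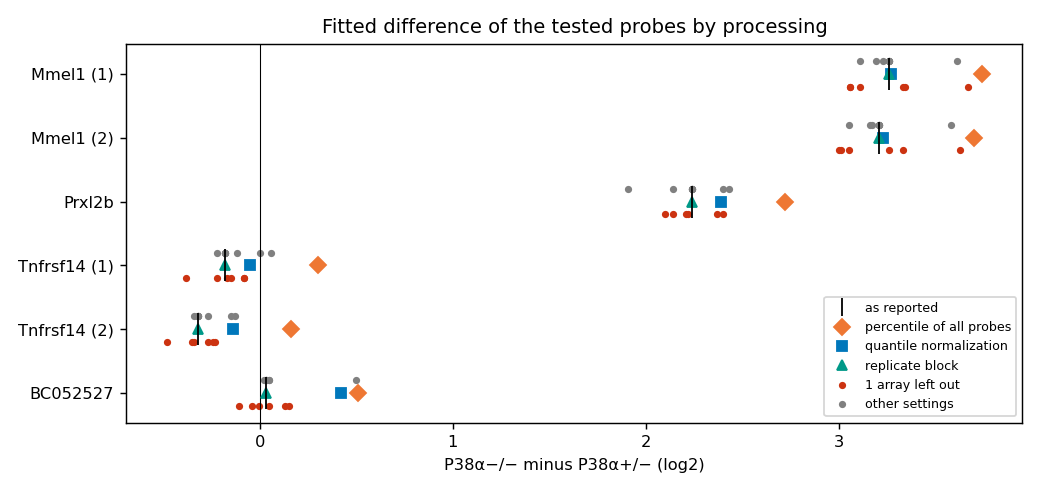
Fitted difference between P38α−/− and P38α+/− erythroblasts (log2, horizontal axis) for the 6 tested probes of the window (vertical axis), with a black bar for the reported value and points for each other processing or left-out array. Mmel1 ran from 3.00 to 3.74 and Prxl2b from 1.91 to 2.72, while the Tnfrsf14 probes and BC052527 ran from −0.48 to 0.51 and fell on both sides of 0.

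Mmel1 and Prxl2b ranked the P38α+/− arrays differently, while P38α−/− replicate 3 was the highest of its genotype for both. Deviations from the genotype mean were −0.41, −0.40 and 0.81 for Mmel1 (probe at chr4:154269571-154269630) in P38α+/− replicates 1, 2 and 3, and 0.32, −0.04 and −0.28 for Prxl2b. P38α+/− replicate 3 was thus the highest control for Mmel1 and the lowest for Prxl2b. In the P38α−/− arrays the deviations were −0.15, −0.16 and 0.31 for Mmel1 and 0.06, −0.26 and 0.21 for Prxl2b, and replicate 3 was the highest for both. That array was on slide 2 and all others were on slide 1, so mouse and slide cannot be told apart there. The other Mmel1 probe deviated by −0.23, −0.10 and 0.32, so the order of replicates 1 and 2 depended on the probe. Between arrays of the same number, Mmel1 differed by 3.53, 3.50 and 2.76 and Prxl2b by 1.98, 2.02 and 2.72, so the pair of arrays with the smallest difference in Mmel1 had the largest in Prxl2b. With 3 arrays a genotype, no correlation is given.

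Other neighbours across the genome give a rough scale for such a pair. Taking each tested gene by its brightest probe, 2690 consecutive pairs had probes at most 10 kb apart. Array entries without a gene name counted as genes here, and some pairs may read the same transcript. Both genes were higher by at least 2 in 1 pair, which was Mmel1 and Prxl2b, and by at least 1 in 10 pairs, or 0.372%. Both were lower by at least 1 in 46 pairs, of which 9 were tail to tail, 5 head to head and 32 on the same strand. Of 1205 tail-to-tail pairs, 2 had both genes higher by at least 1 and 45 had only one of them so. Both genes were higher by at least 1 in 2 of 368 head-to-head pairs and in 6 of 1117 same-strand pairs. In 0 pairs were both genes called by limma and in 12 pairs 1 gene was. The pair was picked with its rise known, so its place at the top of this distribution is no finding.

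**Figure D5:**
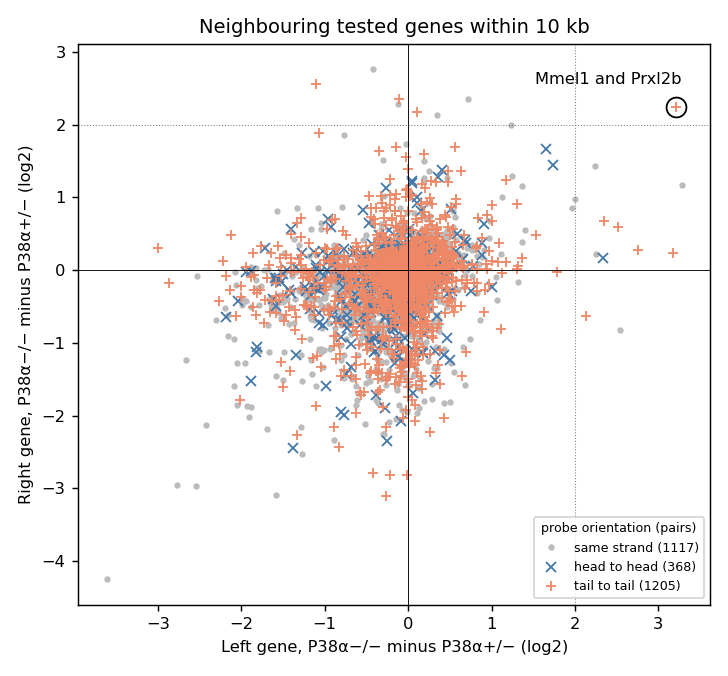
Difference between P38α−/− and P38α+/− erythroblasts (log2) of the left gene (horizontal axis) and the right gene (vertical axis) in 2690 pairs of consecutive tested genes with probes at most 10 kb apart, marked by orientation, with dotted lines at a difference of 2. Mmel1 and Prxl2b, circled at 3.21 and 2.24, are the only pair beyond both dotted lines.

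The start regions of the 2 genes are at the far ends of the pair, away from the 908 bases between their probes. Each is shown as the 250 bases before the RefSeq start (GRCm38.p6), with capitals for matches to CCNCNCCC, the pattern bound by the erythroid factor KLF1, on either strand.
Mmel1 (chr4:154869335-154869584, plus strand): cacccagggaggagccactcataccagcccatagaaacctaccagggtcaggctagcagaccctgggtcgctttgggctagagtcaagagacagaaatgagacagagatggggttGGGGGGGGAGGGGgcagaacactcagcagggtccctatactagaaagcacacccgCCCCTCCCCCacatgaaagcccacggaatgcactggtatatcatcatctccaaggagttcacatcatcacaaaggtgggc
Prxl2b (chr4:154899044-154899293, minus strand): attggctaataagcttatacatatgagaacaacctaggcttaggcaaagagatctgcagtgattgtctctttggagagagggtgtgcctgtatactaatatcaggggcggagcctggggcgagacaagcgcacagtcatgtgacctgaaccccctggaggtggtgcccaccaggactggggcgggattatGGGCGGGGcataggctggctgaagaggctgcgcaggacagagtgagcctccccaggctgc
Motifs were counted over 300 bases, 250 before to 50 after the start. CCNCNCCC matched 5 times, with overlaps, in Mmel1 and 1 time in Prxl2b, and it occurred in 49.5% of 32851 RefSeq promoters. GATAA, the core read by GATA factors, was in neither of these stretches, nor in those of Ttc34, Gm13112, Tnfrsf14, Hes5 or Pank4, and was in 25.4% of promoters. TGANTCA, the AP-1 pattern, was also in neither, and of the window's genes it was found in Gm13112 alone, against 7.81% of promoters. The E-box CANNTG matched 2 times in each, and 72.3% of promoters held it. GC content was 57.7% for Mmel1 and 57.0% for Prxl2b, against a median of 52.7% over all promoters. A match is a run of letters and not a binding site.

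The genes whose pattern over the 6 arrays was nearest to that of the Mmel1 probe at chr4:154269578-154269637 lay on other chromosomes. Likeness was the root-mean-square distance between log2 values, each centred on its own mean, over 13849 genes outside Mmel1. Dusp16, a phosphatase that inactivates JNK and P38 kinases (chr6:134665783-134665842), was nearest at 0.49 and read −4.24, −4.70 and −4.05 against −1.86, −1.73 and −1.80. Gadd45g, a stress-induced activator of the MTK1 kinase upstream of P38 and JNK (chr13:51943733-51943792), followed at 0.52 with −0.27, −0.17 and −0.42 against 2.79, 2.57 and 2.75. Slc23a1, a vitamin C transporter, was at 0.53, Mapre3, a microtubule end-binding protein, at 0.54, and Itgb7, the integrin β7 subunit, at 0.55. These neighbouring ranks are separated by less than the spread between replicates. The P38α+/− arrays read Mapre3 at −6.92, −5.77 and −5.53, not far above the dim Ttc34 probe at −7.93, −6.83 and −6.27. Prxl2b came 21st (0.76), BC052527 came 3573rd (1.64) and Tnfrsf14 came 6371st (1.74). The measure follows the size of the difference between the genotypes, so it mainly lists genes with a similar difference.

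Of 7 M13 peptidases, 2 were bright enough to test, Mmel1 and Kel. Kel, which carries the Kell blood group antigen on red cells, read 4.09, 3.76 and 4.08 against 4.15, 3.68 and 3.94, and its difference was −0.05 (standard error 0.19, adjusted p = 0.906 from limma). Mme (neprilysin itself), Ece2 and Phex, the peptidase lost in X-linked hypophosphatemia, were not well above background on any array, and Ece1 and Ecel1 were above it on 1 P38α+/− array each. By limma 0 of the 2 tested were called, against 0.2% of all tested genes.

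All 9 genes listed for the peroxiredoxin family were tested, their median difference was 0.06, and by limma 1 was called, against 0.2% of all 14026 tested genes. The call was Prxl2b, for which the window was chosen, so nothing is read from it. Its closest relatives, Prxl2a and Prxl2c, differed by 0.01 (standard error 0.27) and 0.28 (standard error 0.19). Prdx2, the abundant peroxiredoxin of red cells, differed by −0.03 (standard error 0.14). Prdx5 read 1.32, 2.15 and 0.78 against 0.57, 0.36 and 0.12 and was lower by 1.06 on the log2 scale, with no overlap and an adjusted p of 0.178 from limma. Such a lack of overlap, with P38α−/− lower, was common: 2740 of the 14026 tested genes had it.

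Among 14 prostanoid genes, 9 were tested, and their median difference was −0.31. Limma called 1 of the 9, which was again Prxl2b, against 0.2% of all tested genes. Ptgs1, the cyclooxygenase that makes prostaglandin H2, read −3.02, −1.89 and −4.20 against −4.80, −4.29 and −5.65 (difference −1.88, standard error 0.63, adjusted p = 0.176 from limma). Ptgs2, the inducible cyclooxygenase, and Ptgfr, the receptor of prostaglandin F2α, were not well above background on any array. Of the enzymes that use prostaglandin H2 for other products, Tbxas1 (thromboxane) differed by 1.11 (standard error 0.32, adjusted p = 0.149 from limma), Ptges (prostaglandin E2) by −0.45 and Ptgis (prostacyclin) by −1.96 (standard error 0.93). Ptgis read −2.07, −3.81 and −5.43 against −4.47, −6.15 and −6.58. It was above background on 2 of the 3 P38α−/− arrays, so it was tested only through the P38α+/− arrays, where it is higher. Akr1b3 and Cbr1, reductases that also act on prostaglandins, differed by −0.32 and 0.82, and neither passed.

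For the other neighbours the related lists gave 0 calls by limma, against 0.2% of all tested genes. Of 6 ligands and receptors connected with HVEM, Tnfrsf14 itself left out, 2 were tested. Ltb, lymphotoxin β, differed by −1.33 (standard error 0.58, overlapping genotypes) and Ltbr, the lymphotoxin β receptor, differed by −2.15 (standard error 0.79, adjusted p = 0.200 from limma). Ltbr read −2.32, −4.52 and −5.66 against −6.30, −6.27 and −6.38. It was above background on 2 of the 3 P38α−/− arrays, so it was tested only through the P38α+/− arrays, where it is higher. Of 18 Notch pathway genes, 5 were tested with a median of −0.03. Of 7 genes of coenzyme A synthesis, 5 were tested with a median of −0.01, and Ppcs, which adds cysteine to phosphopantothenate, read −3.35, −3.92 and −3.20 against −2.66, −2.46 and −2.26, a difference of 1.03 (standard error 0.24, adjusted p = 0.110 from limma) without overlap.

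Other properties of the arrays moved with the genotypes, and their part in the values of Mmel1 and Prxl2b was not tested. The summed level of 7 late erythroid markers, as multiples of the array's 75th percentile, was 244 to 298 in P38α+/− and 226 to 306 in P38α−/− arrays, with all 7 detected. That of 9 neutrophil markers was 109 to 283 against 58.9 to 82.6, and all 9 had a lower mean in the P38α−/− arrays. For B cells (9 markers) it was 0.165 to 1.78 against 0.0755 to 0.232, for T or NK cells (8 markers) 1.07 to 3.03 against 0.868 to 1.02, and for monocytes or macrophages (8 markers, Cd163 undetected) 0.663 to 1.57 against 0.432 to 0.856. For the 5 detected markers of megakaryocytes or platelets it was 2.16 to 2.99 against 2.57 to 3.47, and 4 of the 5 had a higher mean in the P38α−/− arrays (median difference 0.33). In P38α+/− replicates 1, 2 and 3, 53.1%, 38.2% and 36.1% of probes were well above background. In P38α−/− replicates 1, 2 and 3 the share was 28.5%, 35.9% and 35.1%, each below every P38α+/− array. The 2 probes of Mapk14 differed by 0.54 (standard error 0.19, adjusted p = 0.185 from limma) and 0.01, so neither was lower where the label says P38α−/−. Which part of the gene was removed is not given in the files. The paper reports excision of the locus and no P38α protein in sorted erythroblasts of P38α−/− mice.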

How the data were processed

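Bone marrow erythroblast RNA of 6 mice was read on 1 Cy3 array each. The authors deposited the intensity of every spot as Agilent Feature Extraction 10.7.3.1 wrote it, background-subtracted within the array and not normalized between arrays, and a series table of normalized intensity whose steps are not given in the sources used here. The files give probe positions in mm9. Genotype and replicate number came from the sample titles.

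Control spots and spots flagged as outliers were left out, log2 was taken and each array's 75th percentile over probes well above background on all 6 arrays was subtracted. No spot was saturated (0 saturated spots). The genotypes' difference was fitted per probe in R 4.3.3 with limma 3.58.1 (lmFit, eBayes, two-sided test) over 18550 probes with Benjamini-Hochberg adjustment, and called at an adjusted p of at most 0.05 and a fold of at least 2. The script was tested on simulated data. Probes took current symbols through RefSeq where the accession (27509), symbol (3549) or synonym (404) matched. Another 24065 probes kept the name given on the array, and each such name counted as a gene.

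Named genes are all genes of the window, the nearest probes outside it, the 5 genes nearest to Mmel1's pattern, the largest rise and fall within 1 Mb, Mapk14, and tested or defining members of 6 lists. Actrt2 and Gm52690, and list members below background, were named after their values or positions were seen. Members and lists were chosen with earlier results of these data known. The replicate numbers may pair the mice, since the series' description speaks of pairs. Same-numbered arrays deviated from their genotype means together (correlations 0.394, 0.241 and 0.392, against 0.0601 or less for other pairs). The deviations within a genotype cancel out, so these correlations depend on each other, and what same-numbered arrays shared was not tested. Fits ignored the pairing unless the replicate block is named. With that block the standard error fell from 0.37 to 0.21 for both Mmel1 probes and from 0.22 to 0.2 for Prxl2b. In the series table, the column of P38α−/− replicate 2 had a Spearman correlation of 0.898 with its array, against 1 for the other 5. Alternatives were other scalings, background correction, filters, the authors' table, the methods' t-test, array weights, blocks and left-out arrays. Protein sequences were not used here. Undetected members of the megakaryocyte or platelet list are not reported here. Precision is limited by the number of arrays.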

Additional observations from a re-analysis of the deposited data

How the results depend on the processing

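Mmel1 and Prxl2b were higher in P38α−/− arrays under all 17 alternatives, with differences of 3.00 to 3.74 and 1.91 to 2.72, but whether they were called depended on the processing. Of all tested probes, 29 were called as reported. The count was 855 with the percentile of all probes, 12 with quantile normalization, 13 with normexp background, 0 without a filter on dim probes, 67 with probes above background on all 6 arrays, 11 with the authors' values, 2 with the methods' t-test, 1861 with array weights, 69 with the replicate block and 0 with the slide as a block, which amounts to leaving out P38α−/− replicate 3. Leaving out 1 array gave 0 to 104. The share of calls that were higher in P38α−/− arrays, 75.9% as reported, was 56.6% with the percentile of all probes, 91.7% with quantile normalization, 100% with normexp background, the authors’ values or the methods’ t-test, 15.2% with array weights, 29.0% with the replicate block and 37.5% without P38α+/− replicate 3. Of the window's probes, 1 was called as reported, 3 with the percentile of all probes, 3 with the stricter filter, 3 with array weights, 2 with normexp background, 2 with the replicate block, 0 without a filter, 0 with the methods' t-test, 0 with the slide block, and 0 to 3 with 1 array left out. In genes, the window had 1 call as reported, 2 with the percentile of all probes, the stricter filter or array weights, 0 without a filter, with the methods' t-test or with the slide block, and 0 to 2 with 1 array left out. The 0 arose without P38α+/− replicate 2 or any one of the P38α−/− replicates. Without P38α+/− replicate 3, which read highest of the controls for Mmel1, both genes were called. The median difference of the window, 1.13, was 1.62 with the percentile of all probes, 1.40 with quantile normalization, 1.47 with the authors' values, −0.18 without a filter, which adds the dim probes, and 0.15 with Pank4 counted, an alternative added after the data were seen. It was 1.05 to 1.26 with 1 array left out. Values near 0 changed sign: the Tnfrsf14 probes read 0.30 and 0.16 with the percentile of all probes, the first of them also 0.00016 with the authors' values and 0.06 with array weights, and BC052527 read −0.0028, −0.04 and −0.11 without P38α+/− replicate 1, P38α+/− replicate 2 or P38α−/− replicate 1. The cause was not tested. The 5 genes nearest to Mmel1's pattern were the same with the percentile of all probes.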
